A study of Eleusine coracana with 4 samples.

Results

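The LOC_Os10g21 loci are the features of the deposited tables whose identifier starts with LOC_Os10g21. Membership follows the identifier alone, but these loci were chosen for description with earlier results of these data known. There are 125 of them among 55986 features. They are described here as loci around the large plastid DNA insertion of rice chromosome 10. The tables give neither gene names nor products and no genome was used here, so that description rests on the identifiers and could not be checked against names, and no function is given to any locus.

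RNA from finger millet (Eleusine coracana) leaves was sequenced on an Ion Proton instrument in 4 libraries, a control and a salt library each of the genotypes CO12 and Trichy 1. Control plants were kept well watered, and salt plants received 300 mM NaCl at the 4-leaf stage, from day 20. All plants shared the same soil, tissue (the uppermost fully expanded young leaves) and ribosomal RNA depletion. Each group is 1 library, and the labels do not say how many plants it holds, so no difference below has a replicate check, no p-value is given, and intervals cover counting error only.

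Chloroplasts keep a small genome of their own, and copies of its DNA have repeatedly moved into the nuclear chromosomes of plants. Rice chromosome 10 is known for a long insertion of this kind. A read from a plastid transcript can match such a nuclear copy, and where several copies are alike it can match several loci equally well. In leaves, plastid transcripts are abundant. The reference behind the tables is not named in the sources used here. Identifiers of this form are those of rice loci, so the counts also depend on how well finger millet reads match them. Whether the reads of these loci came from plastid RNA, from nuclear copies or from ribosomal RNA left after depletion cannot be told apart in these tables.

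Values are given in the order CO12 control, CO12 salt, then Trichy 1 control, Trichy 1 salt wherever no library is named. Total gene reads were 6272817, 1831353, 3347497 and 2406821, and between 89.6% and 93.1% of them were unique. A unique gene read is taken here, from the column's name, as one that matched a single place. RPM below is total gene reads per 1000000 of the library. RPKM also divides by the deposited length and is used where loci are compared with each other.

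Reads lay in a short stretch of the identifiers. Of the 125 loci, 84 had at least 1 read in some library and 41 had none in any. The 58 loci numbered from LOC_Os10g21190 to LOC_Os10g21418 held 2419848 of the 2420000 reads summed over the libraries, and 55 of them had reads. The 16 loci numbered below that stretch held 38 reads and the 51 numbered above it held 114. At least 20 reads in some library were reached by 30 loci, 29 of them inside the stretch, and the other is LOC_Os10g21910 (11108 bp). Just inside this limit were LOC_Os10g21372 and LOC_Os10g21394, each with 25 reads at most, and just outside were LOC_Os10g21258 with 18 and LOC_Os10g21356 with 17. Of the 30, 23 reached 20 reads in all 4 libraries and 5 in a single library. Those 5 are LOC_Os10g21366 and LOC_Os10g21910, through CO12 control, LOC_Os10g21372 and LOC_Os10g21402, through Trichy 1 control, and LOC_Os10g21404, through Trichy 1 salt. Their ratios against that library were fixed in part by the limit and are given as descriptions. The 95 loci under the limit, 54 of them with reads, together held between 93 and 130 reads per library.

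One locus held nearly everything. LOC_Os10g21190 (2110 bp) had 1230912, 254388, 533240 and 347883 reads. These are 196230, 138907, 159295 and 144540 RPM, so CO12 control was the highest library and CO12 salt the lowest. It held between 97.0% and 98.2% of the reads of the LOC_Os10g21 loci. Between 98.8% and 99.3% of its reads were unique, so these counts depend little on how reads with several matches were placed. Per length it had 93000 RPKM in CO12 control, against 1134 for the next locus, LOC_Os10g21268 (1555 bp).

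With LOC_Os10g21190 included, the LOC_Os10g21 loci took 20.0% of the reads of CO12 control (95% Wilson interval 19.9% to 20.0%) and 14.2% of CO12 salt (14.2% to 14.3%). In Trichy 1 they took 16.4% (16.4% to 16.5%) in control and 14.8% (14.8% to 14.9%) in salt. The salt library of CO12 was therefore at 0.711 of its control (exact binomial interval 0.708 to 0.714), and that of Trichy 1 at 0.904 (0.900 to 0.907). Between genotypes, Trichy 1 was at 0.822 of CO12 without salt (0.819 to 0.824) and at 1.04 with salt (1.04 to 1.05). The lower share under salt in Trichy 1 turned direction with another scaling: the log2 ratio, -0.15 as scaled to library totals, lay between -0.33 and 0.03 over 7 scalings. In CO12 it stayed below 0 in all 7, between -1.25 and -0.40.

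Without LOC_Os10g21190, the other 124 loci gave another picture. They had 22237, 5761, 16376 and 9203 reads, which are 3545, 3146, 4892 and 3824 RPM. Trichy 1 control was the highest library and CO12 salt the lowest. Salt libraries were lower in both genotypes, at 0.887 of control in CO12 (0.862 to 0.914) and 0.782 in Trichy 1 (0.762 to 0.802). Trichy 1 was higher than CO12, by 1.38-fold without salt (1.35 to 1.41) and 1.22-fold with salt (1.18 to 1.26), whereas LOC_Os10g21190 was lower in Trichy 1 without salt, at 0.812 of CO12. These 4 directions held in all 7 scalings, although the genotype log2 ratio without salt was 0.02 with TMM factors over all features. Per 1000 reads of LOC_Os10g21190, the other loci had 18.1, 22.6, 30.7 and 26.5 reads. Unique reads of the 124 loci gave ratios of 0.904, 0.842, 1.32 and 1.23 for the same 4 comparisons.

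**Figure D1:**
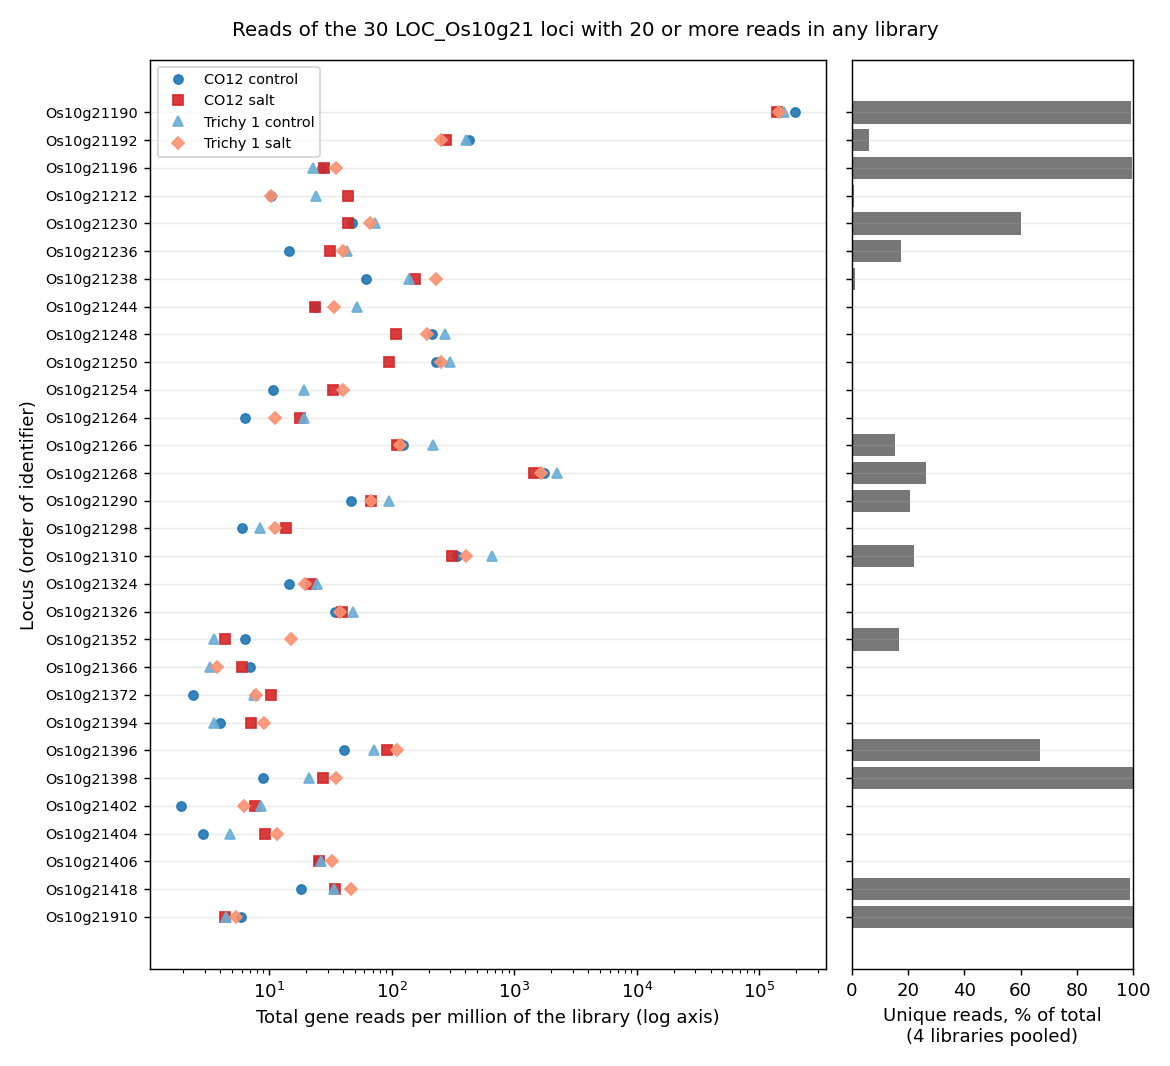
Reads of the 30 LOC_Os10g21 loci with 20 or more reads in any library, in the order of their identifiers. The left axis is RPM on a log scale with 1 point per library, and the right bars are the percentage of reads that were unique over the 4 libraries. LOC_Os10g21190 stands at 138907 to 196230 RPM, and 12 loci have no unique read.

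Among the other loci a few carried most of the reads. LOC_Os10g21268 alone held 49.7%, 46.0%, 45.9% and 43.7% of them, and the first 5 loci held between 71.1% and 83.9%. LOC_Os10g21268 had 1763, 1446, 2244 and 1670 RPM. Both salt libraries were lower than their controls, at 0.820 in CO12 (0.786 to 0.856) and 0.744 in Trichy 1 (0.716 to 0.773). Between 25.3% and 27.7% of its reads were unique. LOC_Os10g21310 (1662 bp) had 343, 309, 658 and 403 RPM, with Trichy 1 control 1.92-fold above CO12 control (1.80 to 2.03). LOC_Os10g21192 (1062 bp), the next numbered locus after LOC_Os10g21190, had 425, 277, 407 and 253 RPM, lower under salt in both genotypes, at 0.652 (0.592 to 0.717) and 0.620 (0.563 to 0.683), and with no genotype difference beyond counting error. Set against LOC_Os10g21190 it had between 1.75 and 2.56 reads per 1000.

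The next loci did not share one order of libraries. LOC_Os10g21250 (2253 bp) had 228, 95.01, 297 and 252 RPM, and LOC_Os10g21248 (2205 bp) had 214, 108, 275 and 193 RPM. In both, CO12 salt was the lowest library. LOC_Os10g21238 (1380 bp) had 61.2, 155, 138 and 229 RPM, with CO12 control lowest. LOC_Os10g21266 (1497 bp) had 123, 110, 219 and 116 RPM, where Trichy 1 control stood above 3 libraries whose values lay close together. LOC_Os10g21396 (2077 bp) had 40.5, 92.3, 71.4 and 111 RPM, higher under salt in both genotypes. LOC_Os10g21290 (963 bp) had 47.0, 67.7, 94.4 and 67.7 RPM, so the salt libraries were equal and lay between the controls. LOC_Os10g21230 (714 bp) had 47.2, 44.2, 73.8 and 66.9 RPM, which separated the genotypes and not salt from control. LOC_Os10g21326 (478 bp) had 34.4, 39.3, 48.7 and 38.2 RPM. Of its 4 ratios between libraries, the one between the controls was beyond counting error, at 1.41-fold (1.15 to 1.74).

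Over the 30 loci at the limit, CO12 control was the lowest library for 15 and Trichy 1 control the highest for 13. Over all 1066 features with at least 20 reads in some library, CO12 control was lowest for 25.5% and Trichy 1 control highest for 29.3%. These ranks were taken with library totals only. With TMM factors over all features, the loci above CO12 control went from 17 to 13 in CO12 salt and from 23 to 19 in Trichy 1 control. The CO12 salt comparison and the genotype comparison without salt share the CO12 control library, so their values below are not independent of each other. Loci of this stretch also share reads and are not separate observations. The 30 loci passed the limit partly through their highest library, so their counts are a description.

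The first question was how the loci differed under salt in CO12. Of the 30, 11 were higher by 2-fold or more in the salt library and 1 was lower by as much, where 13.3% of all 1066 features were 2-fold higher and 18.2% were 2-fold lower. The median log2 ratio was 0.36 against -0.11 for all features. LOC_Os10g21212 (1422 bp) had 10.4 RPM in control and 44.2 under salt, 4.27-fold higher (3.04 to 6.01), with 1 unique read among its 146. LOC_Os10g21372 (471 bp) had 2.39 and 10.4 RPM, 4.34-fold higher (2.09 to 9.17), from 15 and 19 reads. LOC_Os10g21402 (531 bp) had 1.91 and 7.64 RPM, 4.00-fold higher (1.72 to 9.46), from 12 and 14 reads. Neither of these loci had 20 reads in a CO12 library. The lowest ratios were those of LOC_Os10g21250, at 0.416 (0.354 to 0.488), LOC_Os10g21248, at 0.504 (0.432 to 0.586), and LOC_Os10g21192.

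The split in CO12 depended on the scaling. It was 3 higher and 7 lower with TMM factors over all features, where 4.5% of all features were 2-fold higher and 43.8% lower. It was 6 and 5 with median-of-ratios factors over all features, where these shares were 6.38% and 35.4%. Computed over features with 20 or more reads it was 11 and 1 with TMM factors and 12 and 1 with median-of-ratios factors. The shares were then 15.3% and 16.2% with TMM, and 15.7% and 15.8% with median-of-ratios. The scalings move all features together: TMM factors over all features put the median of the 1066 features at -0.86 here, at -0.34 for salt in Trichy 1, and at -0.34 and 0.14 for the genotypes without and with salt. A scaling shifts all features alike, so the distance of the median of the 30 loci from the median of all features is nearly fixed by construction. It lay 0.45 to 0.47 above for salt in CO12 and 0.03 to 0.04 above for salt in Trichy 1. Between the genotypes it lay 0.58 to 0.63 above without salt and 0.26 to 0.28 above with salt.

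In Trichy 1, 4 of the 30 loci were higher under salt by 2-fold or more and 1 was lower by as much, where 12.3% of all features were 2-fold higher and 17.1% were 2-fold lower. The median log2 ratio of -0.12 was close to that of all features, -0.16. LOC_Os10g21352 (438 bp) had 3.58 RPM in control and 15.0 under salt, 4.17-fold higher (2.12 to 8.81), from 12 and 36 reads. LOC_Os10g21394 (1182 bp) had 3.58 and 9.14 RPM, 2.55-fold higher (1.21 to 5.65), and LOC_Os10g21404 (306 bp) had 4.78 and 11.6 RPM, 2.43-fold higher (1.27 to 4.82), from 16 and 28 reads. It reached the limit only in Trichy 1 salt, where it was higher. The lowest ratios were those of LOC_Os10g21212, with 24.2 RPM in control and 10.4 under salt (0.429, 0.263 to 0.679), LOC_Os10g21266 at 0.531 (0.461 to 0.610), and LOC_Os10g21264 (414 bp) with 19.1 and 11.2 RPM (0.587, 0.360 to 0.933). With TMM factors over all features, and with median-of-ratios factors over all features, the split was 3 higher and 2 lower. The shares of all features were then 9.19% and 22.4% with TMM, and 9.1% and 22.7% with median-of-ratios.

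The salt comparisons of the genotypes share no library. Of the 30 loci, 10 were higher under salt in both genotypes, 9 were lower in both, 7 were higher in CO12 and lower in Trichy 1, and 4 were the other way round, counting every difference whatever its size. Over all 1066 features these shares were 27.3%, 39.4%, 18.3% and 15.0%. Among the loci higher in both were LOC_Os10g21396, LOC_Os10g21398 (614 bp) and LOC_Os10g21418 (2205 bp), near the end of the stretch, most of whose reads were unique (66.8%, 100% and 98.8%). LOC_Os10g21396 was 2.28-fold higher in CO12 (1.86 to 2.78) and 1.55-fold in Trichy 1 (1.30 to 1.86). LOC_Os10g21398 had 8.93, 27.3, 21.2 and 34.9 RPM, 3.06-fold higher in CO12 (2.05 to 4.56) and 1.65-fold in Trichy 1 (1.19 to 2.29). LOC_Os10g21418 had 18.2, 34.4, 33.8 and 46.5 RPM, 1.89-fold higher in CO12 (1.37 to 2.60) and 1.38-fold in Trichy 1 (1.05 to 1.81). These 3 loci stayed higher under salt in both genotypes in all 7 scalings, with log2 ratios of at least 0.16.

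The other loci with mostly unique reads were not higher beyond counting error in both genotypes. Scaled to library totals, LOC_Os10g21190 was lower under salt in both, at 0.708 in CO12 and 0.907 in Trichy 1. LOC_Os10g21196 (1068 bp) had 27.1, 27.8, 23.0 and 34.9 RPM, 1.52-fold higher under salt in Trichy 1 (1.10 to 2.09) and 1.03-fold in CO12 (0.736 to 1.41). The difference between those responses was 0.56 on the log2 scale, with an interval from -0.07 to 1.19. LOC_Os10g21230 had ratios of 0.937 (0.724 to 1.20) and 0.907 (0.739 to 1.11). LOC_Os10g21910 had 5.90, 4.37, 4.48 and 5.40 RPM, from between 8 and 37 reads per library, too few to give a direction.

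**Figure D2:**
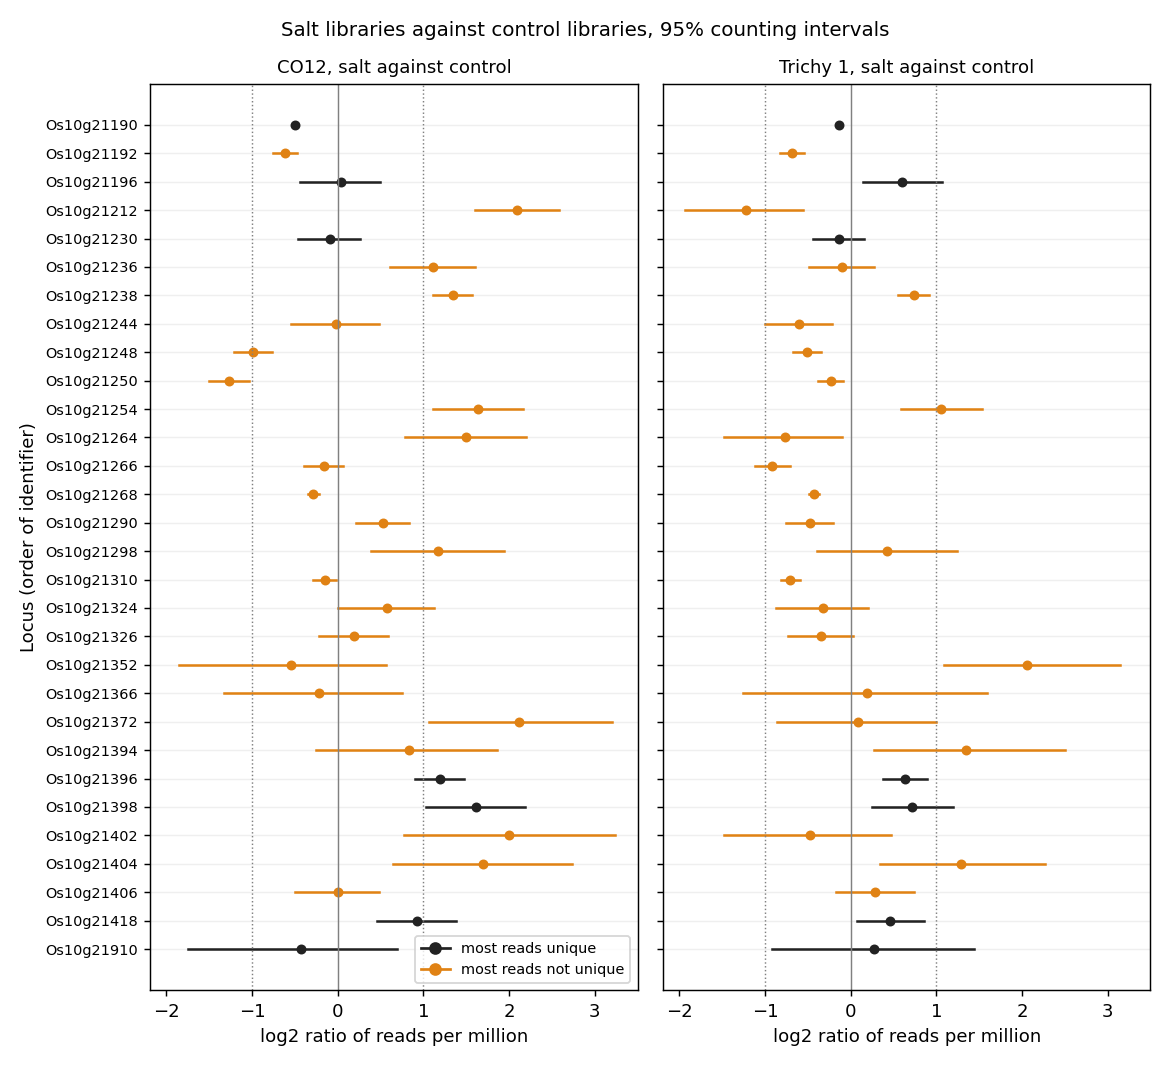
Ratio of the salt library to the control library for the 30 loci, in CO12 (left) and Trichy 1 (right), as log2 of the RPM ratio. Bars are exact 95% counting intervals, dotted lines mark 2-fold, black loci have most reads unique and orange loci have most reads not unique. LOC_Os10g21212 lies at 4.27-fold in CO12 and 0.429 in Trichy 1, and LOC_Os10g21396, LOC_Os10g21398 and LOC_Os10g21418 lie above equality in both panels.

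Between the genotypes without salt, 9 of the 30 loci were higher in Trichy 1 by 2-fold or more and 1 was lower by as much, where 8.26% of all features were 2-fold higher and 9.01% were 2-fold lower. The median log2 ratio was 0.72 against 0.10 for all features. LOC_Os10g21402 was 4.53-fold higher (2.24 to 9.74), with 8.66 against 1.91 RPM from 29 and 12 reads. LOC_Os10g21372 was 3.12-fold higher (1.58 to 6.37), from 25 and 15 reads. Both reached the limit of 20 reads only in Trichy 1 control, the library where they were higher. LOC_Os10g21264 was 3.00-fold higher (1.99 to 4.57), with 19.1 against 6.38 RPM. At the other end, LOC_Os10g21366 (750 bp) stood at 3.29 RPM in Trichy 1 and 7.01 in CO12, or 0.468-fold (0.218 to 0.922), from 11 and 44 reads. It reached the limit only in CO12 control, where it was higher. The intervals of LOC_Os10g21352 and LOC_Os10g21910 included equality. With TMM factors over all features these counts were 4 higher and 2 lower, where 2.63% of all features were 2-fold higher and 18.8% lower. They were 6 and 2 both with median-of-ratios factors over all features and with reads outside the 20 most abundant features as the total. The shares of all features were then 5.16% and 12.9%, and 5.07% and 13%.

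With salt, 2 of the 30 loci were higher in Trichy 1 by 2-fold or more and 1 was lower by as much, where 10.5% of all features were 2-fold higher and 9.10% were 2-fold lower. The median log2 ratio was 0.29 against 0.01. The 2 higher loci were LOC_Os10g21352, 3.42-fold (1.57 to 8.53), and LOC_Os10g21250, 2.65-fold (2.24 to 3.16). The ratio of LOC_Os10g21352 rests on 36 reads in Trichy 1 salt and 8 in CO12 salt. LOC_Os10g21248 came next with 1.79-fold (1.51 to 2.12). Summed with the features of equal length described below, LOC_Os10g21250 was 1.36-fold higher (1.25 to 1.47) and no longer past 2-fold. The lower locus was LOC_Os10g21212, at 0.235 (0.144 to 0.372). LOC_Os10g21264 and LOC_Os10g21366 followed, with intervals that included equality. In both conditions 16 of the 30 loci were higher in Trichy 1, 2 were lower in both, and 12 differed in direction. Over all features these shares were 28.9%, 23.7% and 47.4%. Among the 7 loci with most reads unique, all 7 were higher in Trichy 1 with salt and 4 of 7 without, counting every difference whatever its size, where 50.6% and 51.6% of the 861 features with most reads unique were higher. With salt the interval excluded equality for 2 of these 7 loci, LOC_Os10g21230 and LOC_Os10g21190, the latter at 1.04-fold.

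The salt response itself, as the log2 ratio in Trichy 1 minus that in CO12, differed by at least 2-fold for 8 loci, 2 higher and 6 lower, where 15.6% of all features were 2-fold higher and 15.5% were 2-fold lower. The highest differences were those of LOC_Os10g21352 (2.55, interval 1.14 to 3.96), LOC_Os10g21250 (1.03, 0.76 to 1.30) and LOC_Os10g21910 (0.68, -0.82 to 2.19). The direction of LOC_Os10g21250 turned, to -0.47, when it was summed with the features of its length. The lowest were those of LOC_Os10g21212 (-3.29, -4.08 to -2.49), LOC_Os10g21402 (-2.39, -3.79 to -0.98) and LOC_Os10g21264 (-2.24, -3.16 to -1.32). LOC_Os10g21402 reached the limit only in Trichy 1 control. Alone, its salt ratios were 4.00 in CO12 and 0.719 in Trichy 1. Summed with the feature of its length they were 2.31 and 1.53 (1.06 to 2.21), so its direction in Trichy 1 turned. Factors over all features gave 6 higher and 4 lower with TMM and 3 and 4 with median-of-ratios. Of all features, 29.7% were then higher and 6.75% lower with TMM, and 22% and 8.82% with median-of-ratios.

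Most of these loci share their reads with other places. Of the 30, 12 had no unique read in any library and 3 more had at most 1% unique. The 12 are 40.0% of the loci, and features with no unique read are 7.22% of the 1066. In 23 of the 30, most reads were not unique, against 19.2% of all features. For 17 of these 23, another feature had exactly the same deposited length, most of its own reads not unique, and at least 20 reads in some library. All of these partners lie outside the LOC_Os10g21 identifiers. Of all 205 features with mostly non-unique reads, 34.6% had such a partner, and of the 861 features with mostly unique reads, 9.18% had a partner of equal length of their own kind. The 205 include the 23 loci, and the 71 of them with a partner include the 17 loci and their partners. The 34.6% is therefore not a rate outside these loci. Equal length does not by itself show that sequences are the same, and no sequences were used here. For LOC_Os10g21192 the counts of both partners differed from its own in every library.

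The 17 loci made 39 pairs with such partners. The partners carried LOC_Os04g16 identifiers in 10 pairs, LOC_Os10g38 in 6, LOC_Os01g57 in 4, and 11 other stretches in the rest. In 20 pairs, covering 9 of the 17 loci, the counts of the locus and its partner were equal within counting error in all 4 libraries. LOC_Os10g21324 (699 bp) had 92, 40, 82 and 47 reads, LOC_Os01g57942 had 99, 45, 72 and 46, and LOC_Os04g16846 had 94, 43, 64 and 46. LOC_Os10g21298 (252 bp) had 38, 25, 28 and 27 reads and LOC_Os06g39728 had 38, 25, 26 and 22. For these loci the counts do not tell one place from another.

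In 16 pairs the counts were equal in at most 2 libraries, as for LOC_Os10g21248, LOC_Os10g21250 and LOC_Os10g21238. LOC_Os10g21248 had 1345, 198, 920 and 465 reads, LOC_Os10g38234 had 732, 221, 1033 and 521, and LOC_Os01g57962 had 761, 446, 1097 and 536. At most 1 read of each in any library was unique. LOC_Os10g21248 held 47.4% of their summed reads in CO12 control and 22.9% in CO12 salt, against 30.2% and 30.6% in Trichy 1. LOC_Os10g21250 held 38.3% and 18.9% of the reads of 6 features of 2253 bp in CO12, and 26.6% and 37.0% in Trichy 1. LOC_Os10g21238 held 64.6%, 64.1%, 58.1% and 82.9% of the reads of 3 features of 1380 bp.

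**Figure D3:**
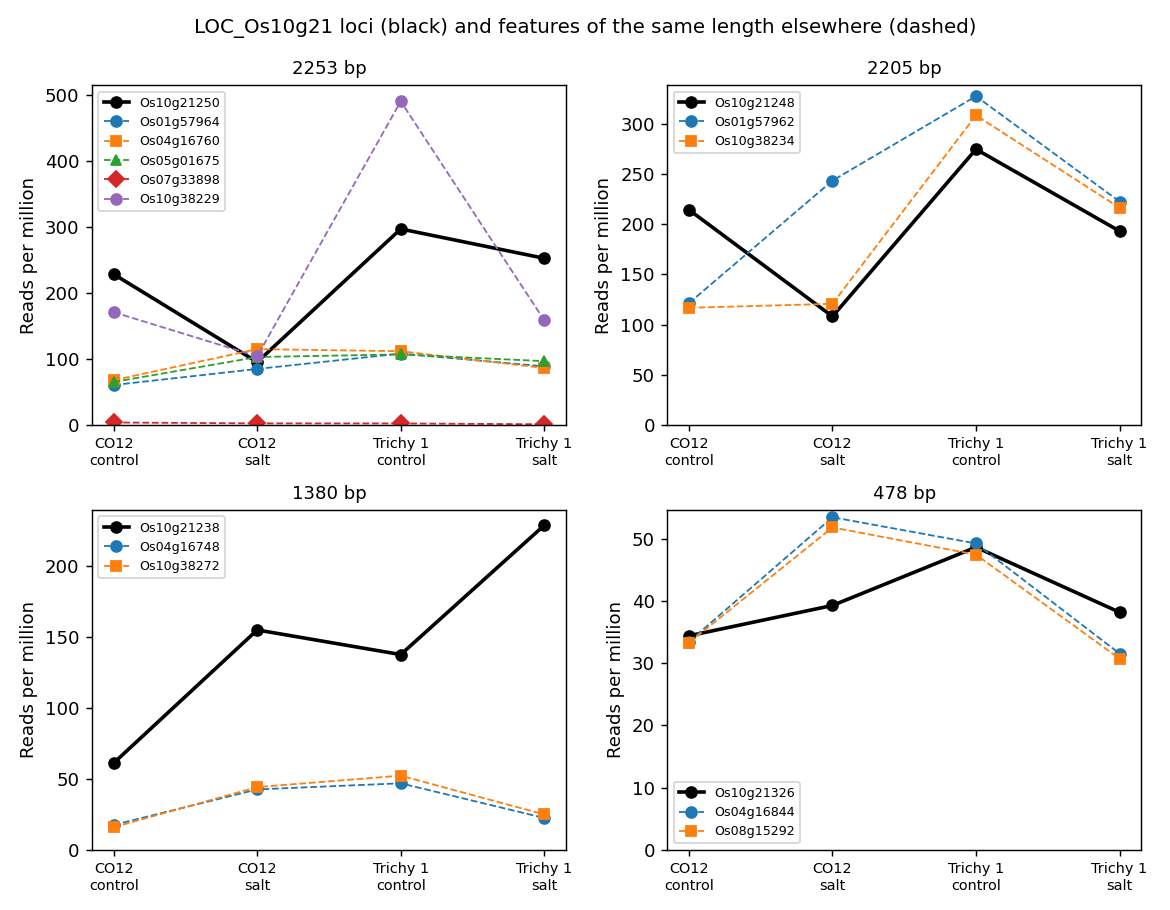
RPM in each library for 4 LOC_Os10g21 loci (black) and the features of the same deposited length elsewhere (dashed). Lines join the values of 1 feature and carry no order in time. The features of 478 bp lie close together in each library, whereas LOC_Os10g21248 is above both of its plotted partners of 2205 bp in CO12 control and below both in the other libraries.

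Summing each locus with its equal-length partners gives values that do not depend on where among them a read was placed. This summing was chosen after the data were seen. A partner enters a sum by its length, whether or not it is a copy. LOC_Os10g41689, partner of LOC_Os10g21192, and LOC_Os10g38274, partner of LOC_Os10g21406, had counts unlike those of the locus in every library. Of their reads, 28.4% and 34.5% were unique. Counts were also unlike in every library for both partners of LOC_Os10g21238 and for LOC_Os02g24634, the other partner of LOC_Os10g21192. The same held for LOC_Os01g57962 with LOC_Os10g21248 and for LOC_Os07g33898 with LOC_Os10g21250. For salt in CO12, LOC_Os10g21248 moved from 0.504 to 1.04 (0.966 to 1.13) and LOC_Os10g21250 from 0.416 to 0.845 (0.786 to 0.909). The high values of LOC_Os10g21238 and LOC_Os10g21254 (1979 bp) stayed, at 2.55-fold (2.25 to 2.89) and 3.06-fold (2.48 to 3.77). The features of 471 bp with LOC_Os10g21372 were 6.24-fold higher (4.71 to 8.32), with 79 reads in control and 144 under salt. The features of 750 bp with LOC_Os10g21366 were lower under salt in CO12, at 0.397 (0.261 to 0.585), where the locus alone had 0.856 (0.399 to 1.68). Of the 17 sums, 13 were higher under salt in CO12, 12 of them beyond counting error, and 4 were lower, 3 of them beyond counting error. In Trichy 1, 9 were higher, 4 beyond counting error, and 8 lower, 7 beyond counting error. Of the 205 features with mostly non-unique reads, taken singly, 57.1% were higher under salt in CO12 and 43.4% in Trichy 1, and of all features 45.6% and 42.3%.

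Between the genotypes without salt, 16 of the 17 sums were higher in Trichy 1, 15 of them beyond counting error, with a median ratio of 1.99, where 68.3% of the 205 features with mostly non-unique reads and 54.8% of all features were higher. The sums were 2.01-fold for LOC_Os10g21248 (1.91 to 2.12), 1.87-fold for LOC_Os10g21250 and 1.91-fold for LOC_Os10g21266 (1.77 to 2.06), whereas LOC_Os10g21248 and LOC_Os10g21250 alone had 1.28 and 1.30. The exception was LOC_Os10g21366, at 0.510 (0.384 to 0.669). Taken alone, 15 of the 17 loci were higher. When summed, LOC_Os10g21406 moved from 1.04 to 1.82 (1.64 to 2.02) and LOC_Os10g21192 from 0.959 to 1.21 (1.16 to 1.26). Each has a partner with counts unlike its own in every library, as do LOC_Os10g21248, LOC_Os10g21250 and LOC_Os10g21238, as given above. With salt, 10 of the 17 were higher in Trichy 1, 6 of them beyond counting error, 2 of the 7 lower ones were beyond it, and the median ratio was 1.14, where 49.3% of the 205 features and 50.4% of all features were higher. The features with LOC_Os10g21372 were lowest, at 0.502 (0.383 to 0.655). Both comparisons count sums that share stretches of identifiers and are not separate observations.

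**Figure D4:**
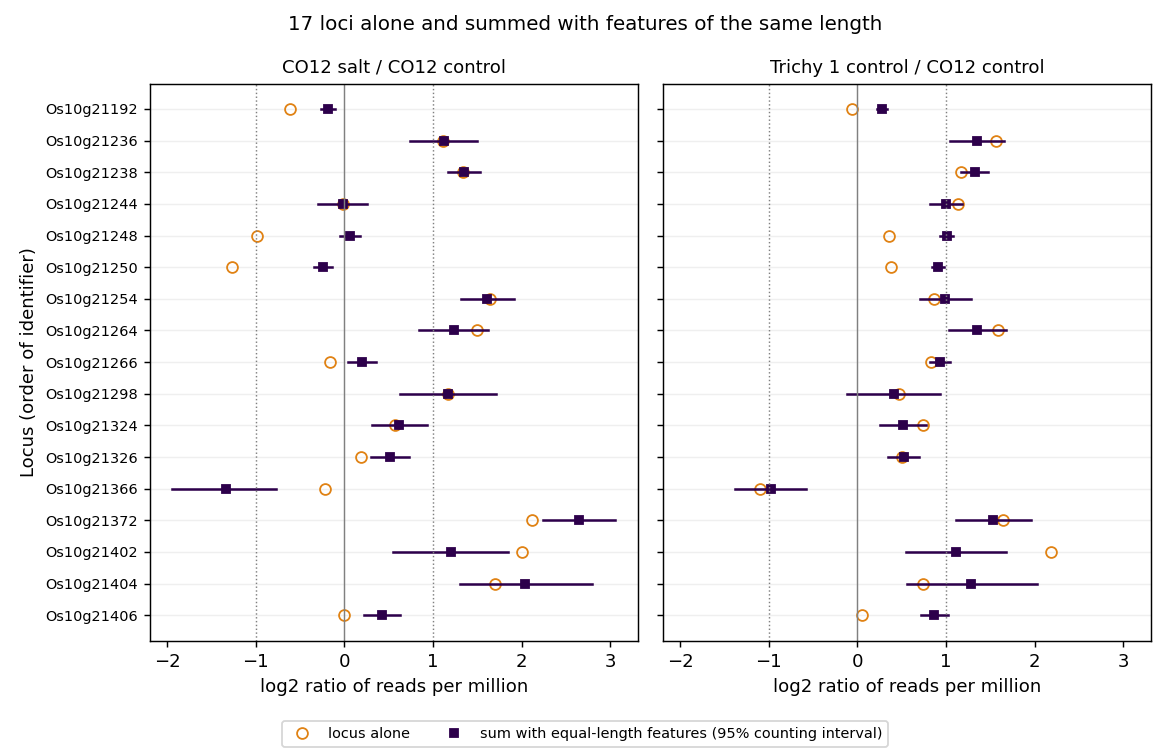
Log2 ratio of RPM for 17 loci alone (open circles) and summed with features of the same length (squares with exact 95% counting intervals), for CO12 salt against CO12 control (left) and Trichy 1 control against CO12 control (right). In the right panel 16 of the 17 sums lie above equality, and in the left panel LOC_Os10g21248 moves from 0.504 to 1.04.

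For scale, 3 other stretches were set beside these loci. Unique reads were between 5.83% and 11.4% of the reads on the LOC_Os10g38 loci, by library, and between 51.1% and 72.0% on the LOC_Os04g16 loci. On the LOC_Os01g57 and LOC_Os01g58 loci they were between 87.2% and 89.3%. The LOC_Os01g57 and LOC_Os01g58 loci took between 24.7% and 28.6% of all reads of a library. The LOC_Os10g38 loci, 8 of them with at least 20 reads, had a median log2 ratio of 0.81 under salt in CO12 and 1.34 between the genotypes without salt. The 28 such LOC_Os04g16 loci had 0.72 and 0.75, and the 18 LOC_Os01g57 and LOC_Os01g58 loci had 0.53 and 0.65. Under salt in Trichy 1 the medians of these 3 groups were -0.35, -0.02 and -0.12. Over all 205 features with mostly non-unique reads, the medians were 0.19 for salt in CO12, -0.22 for salt in Trichy 1, 0.44 between genotypes without salt and -0.03 with salt, against -0.16, -0.15, 0.03 and 0.02 for the 861 features with mostly unique reads. The LOC_Os10g21 medians, scaled to library totals, were 0.36, -0.12, 0.72 and 0.29. In the first 3 comparisons their signs were also those of the 3 stretches and of the 205 features with mostly non-unique reads. These groups overlap: the 205 features include 23 of the 30 LOC_Os10g21 loci and their partners in the 3 stretches. Equal signs are therefore not separate observations. Between the genotypes with salt, the median was 0.20 for the LOC_Os10g38 loci and -0.07 for the LOC_Os04g16 loci. It was -0.03 for the LOC_Os01g57 and LOC_Os01g58 loci. The 861 features with mostly unique reads had the opposite sign for salt in CO12. The salt signs depend on the scaling. TMM and median-of-ratios factors over all features put the LOC_Os10g21 median for salt in CO12 at -0.40 and -0.17. Computed over features with 20 or more reads, they put that for salt in Trichy 1 at 0.06 and 0.03. The part of read placement in these values was not tested beyond the sums above.

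The likeness of other features to the profile of LOC_Os10g21190 was measured as the sum over the libraries of absolute differences in centred log2 RPM, where 0 is the same profile. The nearest LOC_Os10g21 loci were LOC_Os10g21910 (0.48), LOC_Os10g21192 (0.67), LOC_Os10g21268 (0.80), LOC_Os10g21406 (0.92) and LOC_Os10g21326 (1.04), at ranks 29 to 218 of 1065 features. LOC_Os10g21910, at rank 29, rests on 8 to 37 reads per library, so its place is uncertain. LOC_Os10g21192, at rank 68, is the nearest with at least 507 reads in every library. The 5 nearest features overall lie elsewhere, LOC_Os12g17160 (0.10), LOC_Os03g10750 (0.13), LOC_Os01g28030 (0.19), LOC_Os12g17600 (0.26) and LOC_Os04g28860 (0.27). The 4 of them other than LOC_Os12g17600 had between 3.28 and 6.38 RPM, where counting error is large. The median was 2.03 for the LOC_Os10g21 loci and 1.62 for the features outside.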

How the data were processed

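The authors deposited 1 table per library with, per the file headers, total gene reads and unique gene reads (whole-number counts, not normalized), gene length and RPKM. The deposited RPKM equalled total gene reads per 1000000 divided by length in kilobases, to a relative difference of 5.7e-08 at most. Neither aligner nor counting tool nor genome build is named (not given in the sources used here).

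The LOC_Os10g21 loci and all lists were chosen with earlier results of these data known. Each library was scaled to its total gene reads, log2 ratios took a depth-scaled prior of 0.5 count, and features with at least 20 reads in any library were counted as at least 2-fold apart. Folds in the text are ratios of RPM without the prior. Intervals of ratios are exact conditional binomial ones at 95% (Clopper-Pearson), shares have Wilson intervals, and differences of the salt response have intervals of 1.96 standard errors from the 4 counts. The 12 loci with the most reads are given with their RPM in every library. For each comparison the 3 highest and 3 lowest are named, not all of them with values in every library. The rule lets any locus at the limit be named. Gene lists and leaf markers could not be matched, as the tables hold no names. Reads without molecular identifiers may be PCR copies. Python 3.11.15, NumPy 2.4.6, SciPy 1.17.1, edgeR 4.0.16 (TMM factors) and DESeq2 1.42.0 (median-of-ratios factors) were used, and the ratio script was tested on simulated data. Other scalings, floors, priors, thresholds and unique reads were tried as alternatives.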

Additional observations from a re-analysis of the deposited data

Results flagged for a closer look

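LOC_Os10g21212 is singled out because its salt response had opposite directions in the genotypes, 2-fold or more in either, and neither counting interval included equality. In CO12 it had 65 reads without salt and 81 with salt, and in Trichy 1 it had 81 and 25. The difference of the response, Trichy 1 minus CO12, was -3.29 on the log2 scale. The difference was not tested, since each group has 1 library. The directions held in all 7 scalings, with log2 ratios from 1.33 to 2.19 in CO12 and from -1.40 to -1.04 in Trichy 1. At most 1 read per library was unique and no feature of the same length met the conditions for a partner, so how its reads were placed was not tested.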

How the results depend on the processing

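No paired analysis was possible because each group has 1 library, and for the same reason no library could be left out. Scalings, floors, priors, thresholds and unique reads were planned, and factors over features at the limit and sums over equal lengths were chosen after seeing the data. The share of reads on all LOC_Os10g21 loci, in CO12 without and with salt and then Trichy 1 without and with salt, was 21.8%, 14.8%, 17.5% and 15.5% of unique reads. It was 4.54%, 4.12%, 5.85% and 5.19% once the 20 most abundant features, LOC_Os10g21190 and LOC_Os10g21268 among them, were left out, the same with or without LOC_Os10g21190 by construction. Without LOC_Os10g21190 it was 0.354%, 0.315%, 0.489% and 0.382% of all reads and 0.0818%, 0.0739%, 0.108% and 0.0911% of unique reads, and it was 0.144%, 0.139%, 0.199% and 0.175% without LOC_Os10g21268 and LOC_Os10g21310 as well.

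Counts of loci at least 2-fold apart are given as salt in CO12, salt in Trichy 1, genotypes without salt, genotypes with salt and the difference of the salt response, 12, 5, 10, 3 and 8 as reported. They were 2, 0, 3, 1 and 1 with unique reads (13 loci at the limit), 54, 30, 42, 26 and 50 with no floor, 4, 0, 4, 1 and 3 with a floor of 100 reads, and 2, 1, 1, 1 and 4 at 4-fold. Loci with at least 1 unique read gave 6, 2, 5, 3 and 5. With TMM factors over all features the genotypes without salt gave 6. All other counts stayed within 1.5 times the reported ones. Median-of-ratios factors over all features rest on features with few reads: 4929 had reads in every library, with a median of 4 for their mean reads. The features behind the TMM factors were not counted. Of log2 ratios of single loci called 2-fold, the difference of response changed sign for LOC_Os10g21236 with unique reads (0.16 against -1.21) and for LOC_Os10g21250 with equal lengths summed (-0.47 against 1.03). The shallowest library, CO12 salt, limits loci near 20 reads most.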
